A study of Mus musculus with 6 samples.

Results

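The genes described here are 10 factors that act with β-catenin in the nucleus, taken by gene symbol from the 34866 genes measured. They are the adaptors *Bcl9* and *Bcl9l*, the PHD finger genes *Pygo1* and *Pygo2*, the DNA-binding factors *Tcf7*, *Tcf7l1*, *Tcf7l2* and *Lef1*, the β-catenin inhibitor *Ctnnbip1* and the corepressor *Tle1*. The choice rests on names and not on measured values, and all 10 were among the 16536 genes that passed a filter on low counts and were tested. RNA-seq was carried out on excised intestinal adenomas from C57BL/6J mice at 100 to 120 days of age, with 3 libraries from *Apc1322T*/+ mice and 3 from *ApcMin*/+ mice. The labels name no further allele, no Cre and no treatment for either group, and thus no deletion of *Bcl9* or *Pygo* genes. The *ApcMin* allele encodes a short truncation with little remaining function, whereas the product of *Apc1322T* is longer and still binds β-catenin. Each library holds RNA of whole adenomas, typically pooled from several extractions of a single mouse, and no normal tissue is included in the comparison.

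In Wnt signalling, β-catenin that escapes destruction enters the nucleus and binds TCF/LEF proteins, which sit on DNA at Wnt-responsive enhancers. BCL9 proteins bridge β-catenin to Pygo, whose PHD finger binds methylated histone H3, and the assembly with the ChiLS complex of Ldb and Ssbp proteins is called the Wnt enhanceosome. Without β-catenin, TCF factors recruit Groucho/TLE corepressors, and in the intestine this switch controls stem and progenitor cells of the crypt, the cells in which loss of *Apc* starts adenomas.

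The libraries held between 23132461 and 33518324 estimated counts, and 3 counts, taken as the limit of detection for counting error alone, equalled 0.0895 to 0.130 CPM, a unit that scales counts by the size of the library. For this limit the size was the total count, whereas all other CPM values used sizes scaled by TMM, as described below. The tissue label was checked with 10 markers of gut epithelium, all of which were detected and whose summed level was between 12010 and 18210 CPM. *Apc1322T* replicate 1 and *ApcMin* replicate 3 each stood apart from their own group. The former had a Spearman correlation across genes of 0.976 with *Apc1322T* replicates 2 and 3. With *ApcMin* replicates 1, 2 and 3 it had higher ones, of 0.9804, 0.9771 and 0.9822. *ApcMin* replicate 3 had a correlation of 0.974 with *ApcMin* replicates 1 and 2, and these 2 libraries correlated at 0.982 with each other. The highest correlation of *ApcMin* replicate 3 was thus the 0.9822 with *Apc1322T* replicate 1, a library of the other genotype. Values without *Apc1322T* replicate 1, and for some results without *ApcMin* replicate 3, are given where they matter most. *Apc* itself was at 6.42, 6.41 and 6.47 log2 CPM in *Apc1322T* replicates 1 to 3 and at 6.82, 6.80 and 6.97 in *ApcMin* replicates 1 to 3. The *ApcMin* libraries were all higher for it, by a log2 fold change of 0.43 ± 0.081 (SE, n = 3 per genotype), with an adjusted p of 0.257 by edgeR and 0.0094 by DESeq2. Counts per gene do not separate mutant from normal *Apc* transcripts, so that this level does not check the genotypes.

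The question addressed here was whether the nuclear machinery that reads β-catenin differs in its RNA between adenomas with the short and those with the longer Apc truncation. The PHD finger gene and the TCF gene of lowest expression, *Pygo1* and *Tcf7l1*, were higher in every *ApcMin* library than in any *Apc1322T* library, by 2.04-fold and 1.64-fold, but neither passed the adjusted test. *Lef1* had the lowest log2 fold change of the 10, at -0.46, with overlapping libraries. The 5 most abundant genes per length, *Tcf7*, *Tle1*, *Pygo2*, *Ctnnbip1* and *Tcf7l2*, and the pair *Bcl9* and *Bcl9l* had fold changes between 0.90 and 1.19.

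None of the 10 genes (0 of 10) reached an adjusted p below 0.01 in the quasi-likelihood test of edgeR, adjusted over all genes by Benjamini-Hochberg, where 0 of 16536 genes (0%) did. DESeq2 likewise called 0 of the 10, beside 194 of 17503 genes (1.11%). At an unadjusted p under 0.05, edgeR gave 2 of the 10 (*Pygo1* and *Tcf7l1*), beside 2495 genes or 15.1% of those tested. Both numbers moved with the libraries used. Without *Apc1322T* replicate 1 the 2 genes were *Pygo1* and *Tcf7*, beside 24.4% of all genes (4117 of 16851). Only *Tcf7l1* was left without *Apc1322T* replicate 2 (6.92% of all genes) or *ApcMin* replicate 1 (11.8%), only *Lef1* was under 0.05 without *Apc1322T* replicate 3 (8.63%), and 0 of the 10 were without *ApcMin* replicate 3 (9.87%). The libraries of the genotypes did not overlap for 3 of the 10 (*Pygo1*, *Tcf7l1* and *Ctnnbip1*), beside 21.0% of all tested genes. The *ApcMin* libraries were all higher for 2 of them, where 11.0% of all genes were, and all lower for 1, where 9.96% were. In direction, 6 of the 10 had a log2 fold change above 0, beside 52.4% of all genes, and their median was 0.076 against 0.017 over all genes. These shares differ little from the background, and with 10 genes nothing particular to the set can be read from them. As a library was typically made from a single mouse, the p-values measure the spread between such libraries.

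**Figure D1:**
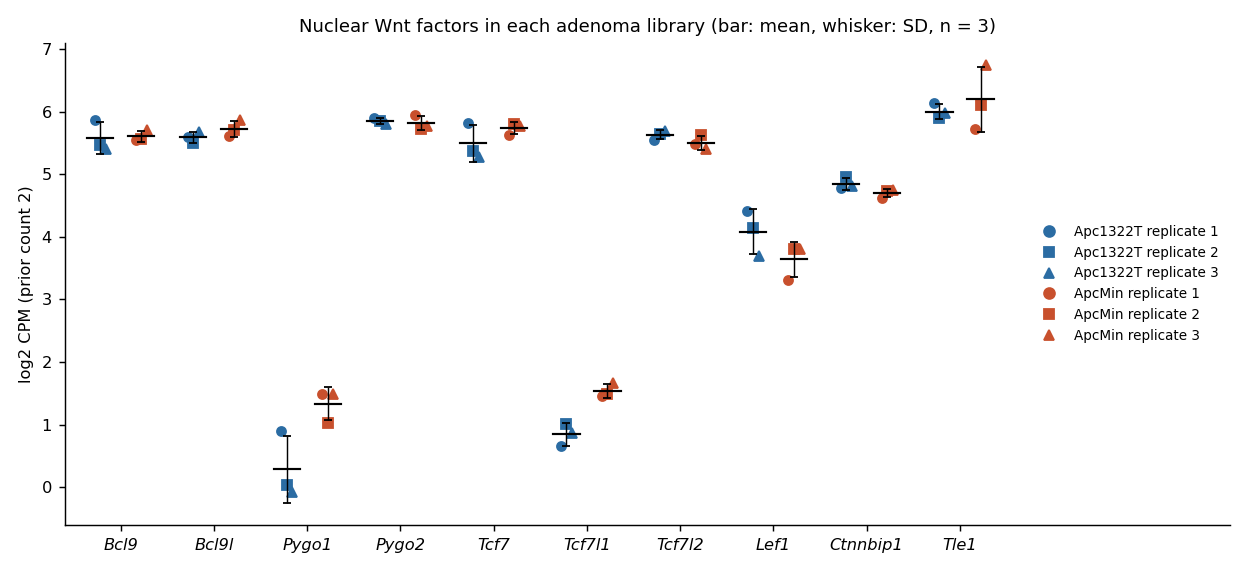
Level of each of the 10 genes in each library, in log2 CPM with a prior count of 2; blue symbols are *Apc1322T* and orange symbols *ApcMin* libraries, and bars and whiskers give the mean and SD of 3 libraries. *Pygo1* and *Tcf7l1* lie far below the other 8 genes and are the ones whose orange symbols all lie above the blue; *Tle1* in *ApcMin* replicate 3 is the highest point, at 6.75.

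Levels were first compared between genes per length, as CPM per kilobase of the mean annotated protein-coding transcript, over all 6 libraries. *Tcf7* was at 23.4 ± 3.66 (SD, n = 6), *Tle1* at 21.5 ± 5.93, *Pygo2* at 18.6 ± 1.05, *Ctnnbip1* at 16.5 ± 1.25 and *Tcf7l2* at 15.8 ± 1.17 CPM per kilobase. *Bcl9* followed at 9.01 ± 1.12 and *Bcl9l* at 8.48 ± 0.742, and then *Lef1* at 4.76 ± 1.27, *Tcf7l1* at 0.929 ± 0.259 and *Pygo1* at 0.233 ± 0.104 CPM per kilobase. The order of *Tcf7* and *Tle1*, of *Tle1* and *Pygo2* and of *Bcl9* and *Bcl9l* held in 4 of 6 libraries and that of *Ctnnbip1* and *Tcf7l2* in 3 of 6, so that these neighbours did not differ beyond the spread. Every other step of the order held in 6 of 6 libraries. When the length of all exons of a gene together was used in place of the mean transcript, an alternative chosen after seeing the data, *Pygo2* came before *Tle1* and *Tcf7l2* before *Ctnnbip1*. By that length *Bcl9* lay above *Bcl9l* in 6 of 6 libraries.

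*Bcl9*, on chr3:97203662-97297917 (minus strand; positions here and below are of GRCm38), encodes the adaptor that binds β-catenin on one side and Pygo on the other. Its log2 CPM was 5.87, 5.46 and 5.40 in *Apc1322T* replicates 1, 2 and 3, and 5.54, 5.57 and 5.71 in the *ApcMin* replicates. The highest value was thus in *Apc1322T* replicate 1 and the 2 lowest in the other libraries of that genotype, so that the *ApcMin* values fell inside the *Apc1322T* range. Its log2 fold change was 0.013 ± 0.14 (SE, n = 3 per genotype; 95% interval -0.32 to 0.35; edgeR adjusted p = 0.971), and its sign turned under several alternatives. Without *Apc1322T* replicate 1 it was 0.18, with an adjusted p of 0.260.

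The paralog *Bcl9l*, on chr9:44482825-44511896 (plus strand), encodes a second adaptor of the same kind. Its values were 5.59, 5.50 and 5.67 log2 CPM in the *Apc1322T* libraries and 5.61, 5.70 and 5.86 in the *ApcMin* libraries. The 2 groups overlapped, with *ApcMin* replicate 3 highest and *Apc1322T* replicate 2 lowest. The log2 fold change of 0.14 ± 0.098 (SE, n = 3 per genotype; 95% interval -0.094 to 0.37) had an edgeR adjusted p of 0.502, and on the linear scale the interval runs from 0.937-fold to 1.30-fold. Without *ApcMin* replicate 3 the log2 fold change was 0.067.

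Within a library, *Bcl9* and *Bcl9l* were close to equal per kilobase of the mean transcript. *Bcl9* was at 1.35, 1.08 and 0.916 times the level of *Bcl9l* in *Apc1322T* replicates 1, 2 and 3, and at 1.06, 1.01 and 0.993 times in *ApcMin* replicates 1, 2 and 3. The *ApcMin* libraries thus lay close to equality, and the *Apc1322T* libraries spread to both sides of them. The mean log2 ratio was 0.14 ± 0.28 (SD, n = 3) in *Apc1322T* and 0.028 ± 0.046 (SD, n = 3) in *ApcMin* adenomas, with p = 0.7 in a two-sided exact permutation test, in which 3 libraries against 3 allow no p under 0.1. The difference of -0.11 became 0.037 without *Apc1322T* replicate 1 and -0.24 without *Apc1322T* replicate 3. When the length of all exons together was used, *Bcl9* was at 1.025 to 1.513 times the level of *Bcl9l* and thus above it in all 6 libraries. The difference between the genotypes stayed at -0.11. Salmon, which made these counts, divides reads shared by similar transcripts according to estimated abundance, and this holds for each pair of paralogs described here.

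*Pygo1*, on chr9:72925645-72952181 (plus strand), encodes one of the PHD finger proteins that BCL9 brings to β-catenin. It had 49, 20 and 20 counts in *Apc1322T* replicates 1, 2 and 3, or 0.90, 0.03 and -0.08 log2 CPM, and 98, 50 and 87 counts in the *ApcMin* replicates, or 1.49, 1.03 and 1.50 log2 CPM. All values lay above the limit of 3 counts, and the 3 *ApcMin* libraries lay above the *Apc1322T* libraries, though *Apc1322T* replicate 1 came within 0.12 log2 CPM of *ApcMin* replicate 2. *Pygo1* had a log2 fold change of 1.03 ± 0.37 (SE, n = 3 per genotype), or 2.04-fold with a 95% interval of 1.11 to 3.75. The edgeR p was 0.0274 before and 0.307 after adjustment, and the DESeq2 adjusted p was 0.196. When any 1 library was removed, the log2 fold change lay between 0.84 and 1.45, and the upper value, without *Apc1322T* replicate 1, had an adjusted p of 0.083.

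*Pygo2*, on chr3:89430214-89435128 (plus strand), encodes the related PHD finger protein. It was at 5.89, 5.85 and 5.79 log2 CPM in the *Apc1322T* libraries and at 5.95, 5.73 and 5.78 in the *ApcMin* libraries. All 6 values lay close together and the groups overlapped. A log2 fold change of -0.026 ± 0.089 (SE, n = 3 per genotype; edgeR adjusted p = 0.905) had a 95% interval of -0.24 to 0.19 and turned to 0.031 under upper quartile scaling.

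*Pygo2* RNA exceeded *Pygo1* RNA by a wide margin in all libraries. Per length, the ratio of *Pygo2* over *Pygo1* was 85.6, 157 and 164 in *Apc1322T* replicates 1, 2 and 3, and 58.3, 69.7 and 51.6 in *ApcMin* replicates 1, 2 and 3. The ratio was therefore lower in each *ApcMin* library than in any *Apc1322T* library. On the log2 scale *Pygo1* over *Pygo2* averaged -7.02 ± 0.52 (SD, n = 3) in *Apc1322T* and -5.89 ± 0.22 (SD, n = 3) in *ApcMin* adenomas, a difference of 1.13, with p = 0.1 in the exact permutation test, the smallest p that it can give. Without *Apc1322T* replicate 1 the difference was 1.43. Since this ratio is taken within a library, it does not depend on how the libraries were scaled.

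*Tcf7*, on chr11:52252371-52283014 (minus strand), encodes TCF1, a TCF factor of intestinal crypts and of T cells. It was at 5.83, 5.38 and 5.28 log2 CPM in *Apc1322T* replicates 1, 2 and 3 and at 5.63, 5.81 and 5.76 in the *ApcMin* replicates. *Apc1322T* replicate 1 was the highest library of all, and the other 2 *Apc1322T* libraries were the lowest. For *Tcf7* the log2 fold change was 0.22 ± 0.16 (SE, n = 3 per genotype; 95% interval -0.15 to 0.59; edgeR adjusted p = 0.503). Its size depended on single *Apc1322T* libraries, as it was 0.41 without replicate 1 (edgeR adjusted p = 0.0765) and 0.11 without replicate 3.

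*Tcf7l1*, on chr6:72626378-72789254 (minus strand), encodes TCF3, which is known chiefly as a repressor of Wnt targets. It had 41, 41 and 40 counts in the *Apc1322T* libraries, or 0.66, 1.02 and 0.87 log2 CPM, and 96, 70 and 98 counts in the *ApcMin* libraries, or 1.46, 1.50 and 1.66 log2 CPM. The groups were apart by 0.45 log2 CPM, the highest *Apc1322T* library being replicate 2. The log2 fold change of 0.71 ± 0.24 (SE, n = 3 per genotype) corresponds to 1.64-fold with a 95% interval of 1.10 to 2.44. Its edgeR p was 0.0213 before and 0.288 after adjustment, and its DESeq2 adjusted p was 0.210. Leaving out any 1 library gave log2 fold changes from 0.62 to 0.80.

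*Tcf7l2*, on chr19:55741820-55933654 (plus strand), encodes TCF4, the main TCF factor of the intestinal epithelium. Its level was 5.55, 5.65 and 5.69 log2 CPM in the *Apc1322T* libraries and 5.48, 5.62 and 5.41 in the *ApcMin* libraries. *ApcMin* replicate 2 lay within the *Apc1322T* range and the other 2 *ApcMin* libraries just below it. For *Tcf7l2*, the log2 fold change of -0.13 ± 0.091 (SE, n = 3 per genotype; 95% interval -0.34 to 0.092) had an edgeR adjusted p of 0.517, and it lay between -0.19 and -0.080 with 1 library removed, the latter without *ApcMin* replicate 3.

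*Lef1*, on chr3:131110471-131224356 (plus strand), encodes a TCF/LEF factor that is itself a Wnt target and that T cells also express. It had 579, 371 and 294 counts in *Apc1322T* replicates 1, 2 and 3, or 4.41, 4.15 and 3.69 log2 CPM. The *ApcMin* libraries had 354, 354 and 440 counts, or 3.32, 3.81 and 3.81 log2 CPM. The 2 highest libraries were *Apc1322T* replicates 1 and 2 and the lowest was *ApcMin* replicate 1, but *Apc1322T* replicate 3 lay among the *ApcMin* libraries. Between the genotypes the log2 fold change was -0.46 ± 0.23 (SE, n = 3 per genotype), so that *Lef1* was 1.37-fold higher in *Apc1322T*, and its 95% interval of -0.995 to 0.080 includes 0, with an unadjusted edgeR p of 0.0835 and an adjusted p of 0.375. Without *Apc1322T* replicate 1 the log2 fold change was -0.28, and without *Apc1322T* replicate 3 it was -0.63.

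**Figure D2:**
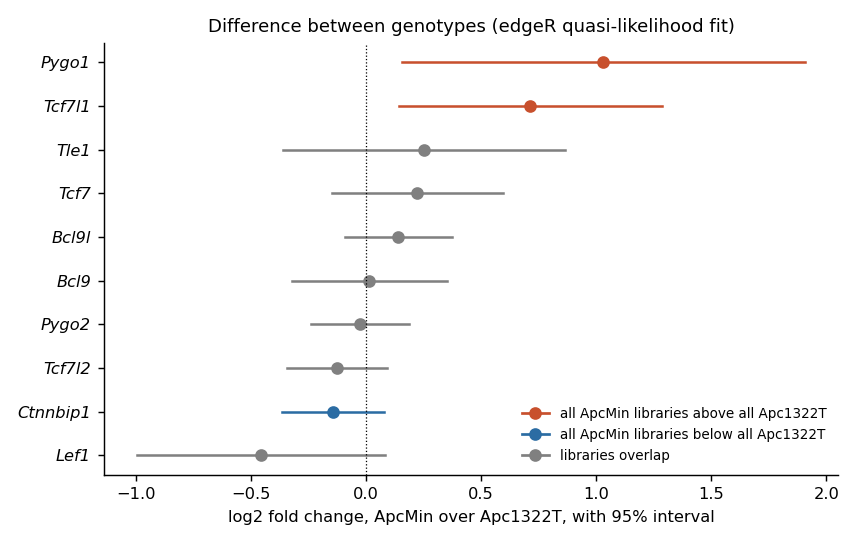
Log2 fold change of each gene (*ApcMin* over *Apc1322T*, horizontal axis) with its 95% interval from edgeR's quasi-likelihood fit of 3 against 3 libraries; colours mark genes whose libraries do not overlap. The intervals of *Pygo1* and *Tcf7l1* lie above 0 and those of the other 8 genes include it; none of the 10 passed the adjusted test.

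The 4 TCF/LEF genes were then taken as shares of their summed CPM per kilobase within each library. *Tcf7* made up 53.9%, 46.0% and 45.5% of this sum in *Apc1322T* replicates 1, 2 and 3 and 55.1%, 54.8% and 56.5% in *ApcMin* replicates 1, 2 and 3. *Tcf7l2* accounted for between 31.3% and 42.6% in *Apc1322T* and between 31.0% and 34.9% in *ApcMin* libraries. In all 6 libraries, these 2 genes thus gave most of the TCF/LEF RNA. *Lef1* contributed 13.6%, 13.2% and 10.2% in the *Apc1322T* libraries and 7.42%, 9.16% and 9.74% in the *ApcMin* libraries, and *Tcf7l1* between 1.22% and 1.85% against between 2.30% and 2.76%.

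The shares of *Tcf7*, *Lef1* and *Tcf7l1* did not overlap between the genotypes. The mean *Tcf7* share was 48.5% ± 4.72 (SD, n = 3) in *Apc1322T* and 55.5% ± 0.925 in *ApcMin*, that of *Lef1* 12.3% ± 1.86 and 8.77% ± 1.21, and that of *Tcf7l1* 1.61% ± 0.338 and 2.54% ± 0.229. Each of these 3 differences had p = 0.1 in the two-sided exact permutation test, the smallest p it allows, and the *Tcf7l2* share, at 37.6% ± 5.77 and 33.2% ± 2.01, had p = 0.3. Without *Apc1322T* replicate 1, the *Tcf7l2* shares did not overlap either, with a difference of -7.57 percentage points (exact permutation p = 0.1, the smallest possible), against -4.40 with all libraries and -1.92 without *Apc1322T* replicate 3. The difference in the *Tcf7* share was 7.004 percentage points with all libraries and 9.73 without *Apc1322T* replicate 1. These are 4 shares of a single sum, which are not independent of each other, and with the 2 ratios of paralogs they make 6 tests of which none could reach 0.05.

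**Figure D3:**
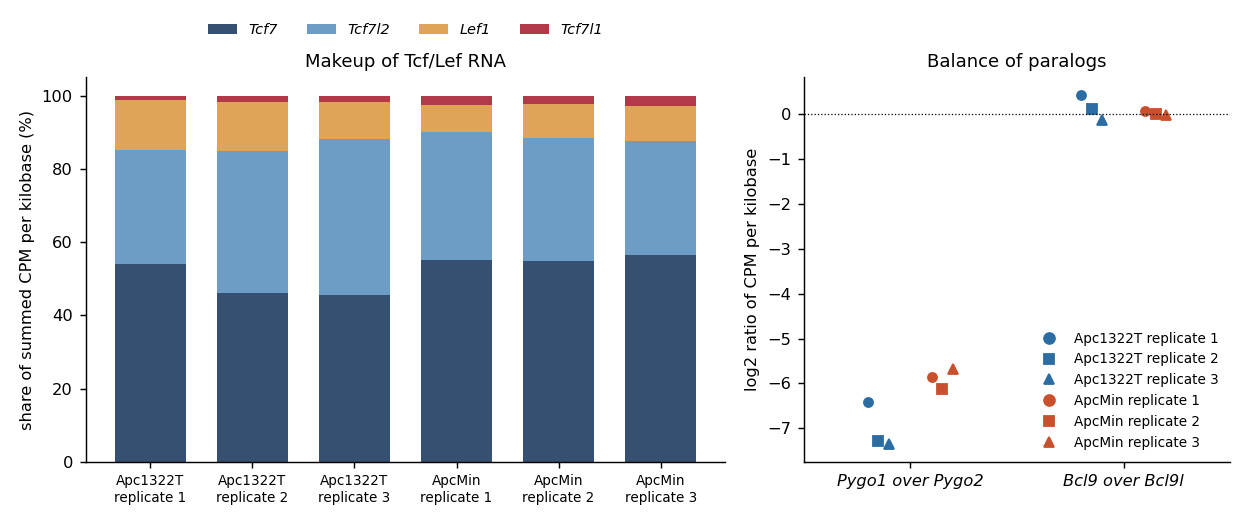
Left, share of *Tcf7*, *Tcf7l2*, *Lef1* and *Tcf7l1* in their summed CPM per kilobase (percent, vertical axis) in each library; right, log2 ratio of CPM per kilobase for *Pygo1* over *Pygo2* and *Bcl9* over *Bcl9l*, 1 symbol per library. *Tcf7* holds a larger share in the 3 *ApcMin* libraries (54.8% to 56.5%) than in the *Apc1322T* libraries, and the *Pygo1* to *Pygo2* ratio is higher in all 3 of them.

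*Ctnnbip1*, on chr4:149518236-149566437 (plus strand), encodes ICAT, which binds β-catenin and blocks its contact with TCF factors. It was at 4.78, 4.95 and 4.81 log2 CPM in the *Apc1322T* libraries and at 4.62, 4.73 and 4.75 in the *ApcMin* libraries. The *ApcMin* libraries were all lower, but the gap between the groups was only 0.026 log2 CPM. Its log2 fold change was -0.15 ± 0.093 (SE, n = 3 per genotype; 95% interval -0.37 to 0.076; edgeR adjusted p = 0.466), and it was -0.091 without *Apc1322T* replicate 2.

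*Tle1*, on chr4:72117142-72200919 (minus strand), encodes a Groucho/TLE corepressor that TCF factors bind. It was at 6.14, 5.90 and 5.97 log2 CPM in the *Apc1322T* libraries and at 5.73, 6.10 and 6.75 in the *ApcMin* libraries. *ApcMin* replicate 3 was the highest of the 6 and *ApcMin* replicate 1 the lowest, so that the *ApcMin* range enclosed the *Apc1322T* range. The log2 fold change of 0.25 ± 0.25 (SE, n = 3 per genotype; edgeR adjusted p = 0.641) rested on *ApcMin* replicate 3 and was -0.080 without it.

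The promoters of these genes were searched for the letters that TCF/LEF factors bind, since some of the genes are themselves described as Wnt targets. RefSeq promoter windows on GRCm38.p6, from 250 bases before to 50 bases after an annotated start, were matched by symbol for 9 of the 10 genes (all but *Bcl9l*), with 17 windows in total. The core CTTTG followed by AA, by AT, by TA or by TT was sought on either strand, and was present in 2 of the 17 windows, beside 16.9% of all 32851 windows. Both matches lie at starts inside the gene, at positions that no exon of GENCODE M21 overlaps and that are thus intronic there. They are printed below with 11 bases on either side and the motif in capitals, in the direction of transcription.
*Lef1*, chr3:131156136-131156164 (plus strand): caacctcagaaTACAAAGtaggattgcat
*Tcf7l2*, chr19:55895296-55895324 (plus strand): aaaatatcaggCTTTGTTcttttgattga
The *Lef1* match reads CTTTGTA on the opposite strand and its first base as printed lies at -147 from the start, and that of *Tcf7l2* reads CTTTGTT on the same strand and begins at -14. The genes with the largest fold changes, *Pygo1* and *Tcf7l1*, had no match in their windows. The share of windows with a match is near that of all promoters, and a match describes letters and not binding.

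Other genes of nuclear Wnt signalling were read from lists fixed by name, but chosen with earlier results of these data known. Of their 53 tested genes, 0 passed edgeR's adjusted threshold, while DESeq2 called 1, *Sox17*. At an unadjusted p under 0.05 edgeR gave 8 of the 53, and the libraries did not overlap for 12, beside the 15.1% and 21.0% of all genes given above. In the Groucho/TLE family outside *Tle1*, 3 of 5 genes had a log2 fold change above 0, with a median of 0.12. *Tle2*, a corepressor like *Tle1*, was at 1.23, 1.40 and 1.52 log2 CPM in *Apc1322T* and at 2.10, 2.06 and 2.31 in *ApcMin* libraries. These groups did not overlap, and the log2 fold change was 0.79 ± 0.21 (SE, n = 3 per genotype), with an unadjusted edgeR p of 0.0075 and an adjusted p of 0.278. *Tle3*, with a log2 fold change of 0.12, was also higher in all *ApcMin* libraries, and *Tle5*, the short family member that lacks the corepressor's WD repeats, was lower in all of them, with a log2 fold change of -0.23 ± 0.094 (SE; edgeR adjusted p = 0.322).

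In the ChiLS complex, through which the enhanceosome is assembled, 5 of 5 genes had a log2 fold change above 0, beside 52.4% of all genes. Their median was 0.42 against 0.017 over all genes. The libraries did not overlap for 2 of the 5, beside 21.0% of all genes. *Ssbp3*, a single-stranded DNA-binding protein subunit, was at 5.58, 5.47 and 5.32 log2 CPM in *Apc1322T* and at 5.90, 5.98 and 5.81 in *ApcMin* libraries. *Ldb1*, the LIM-domain-binding subunit, was at 5.89, 5.72 and 5.62 against 5.97, 6.11 and 6.34 log2 CPM. The libraries did not overlap for either, and the log2 fold changes were 0.44 ± 0.097 for *Ssbp3* and 0.40 ± 0.12 for *Ldb1* (SE, n = 3 per genotype; edgeR adjusted p = 0.257 and 0.286). By DESeq2 the adjusted p-values were 0.054 and 0.171. The other 3, *Ldb2*, *Ssbp2* and *Ssbp4*, had overlapping libraries and log2 fold changes of 0.42, 0.53 and 0.063. *Ldb2* and *Ssbp2* had low counts, from 17 to 130 per library. For *Ssbp4* the value turned to -0.0091 without *Apc1322T* replicate 3 and to -0.023 without *ApcMin* replicate 3.

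In a list of 15 genes, made up of β-catenin and coactivators that it recruits, 7 had a log2 fold change above 0 and 8 below, with a median of -0.029. *Med12*, a subunit of the Mediator kinase module, was higher in all *ApcMin* libraries, with a log2 fold change of 0.34 ± 0.12 (SE, n = 3 per genotype; edgeR adjusted p = 0.288), as was the arginine methyltransferase gene *Carm1*, with a log2 fold change of 0.18. *Ctnnb1*, which encodes β-catenin, was at 10.48, 10.49 and 10.45 log2 CPM in *Apc1322T* and at 10.33, 10.35 and 10.44 in *ApcMin* libraries. The *ApcMin* values were all lower, but by no more than a log2 fold change of -0.10 ± 0.098 (SE; edgeR adjusted p = 0.618).

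Of 12 nuclear antagonists of β-catenin or TCF, 9 had a log2 fold change above 0, with a median of 0.11. *Sox17*, an HMG box factor that can oppose TCF and that is also an endothelial gene, had 441, 192 and 156 counts in *Apc1322T* and 1752, 2554 and 5491 counts in *ApcMin* libraries. This is 4.02, 3.20 and 2.79 log2 CPM against 5.61, 6.65 and 7.44, with the groups far apart and *ApcMin* replicate 3 highest. The log2 fold change was 3.32 ± 0.56 (SE, n = 3 per genotype), or 10.01-fold with a 95% interval of 3.90 to 25.7. It did not pass edgeR's adjusted test, with an unadjusted p of 0.00091 and an adjusted p of 0.257, and did pass that of DESeq2 (adjusted p = 2.91e-10). The *ApcMin* libraries were also all higher for *Hic1*, *Hdac2* and *Chd8*, with log2 fold changes of 0.56, 0.20 and 0.11 and edgeR adjusted p-values from 0.319 to 0.495.

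The read-out of these factors, 16 Wnt/TCF target genes, was split evenly, with 8 log2 fold changes above 0 and 8 below and a median of -0.013, and the libraries of the genotypes did not overlap for 0 of the 16, beside 21.0% of all genes. The highest was 0.41, and the lowest was -0.58 for *Lgr5* (95% interval -1.02 to -0.15), whose libraries overlapped. *Lgr5* was the 1 target with an unadjusted edgeR p under 0.05, at 0.0157, beside 15.1% of all genes. Its adjusted p was 0.286 by edgeR and 0.084 by DESeq2. With 1 library left out its log2 fold change lay between -0.75 and -0.43. Without *Apc1322T* replicate 1 the median of the 16 was 0.18.

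**Figure D4:**
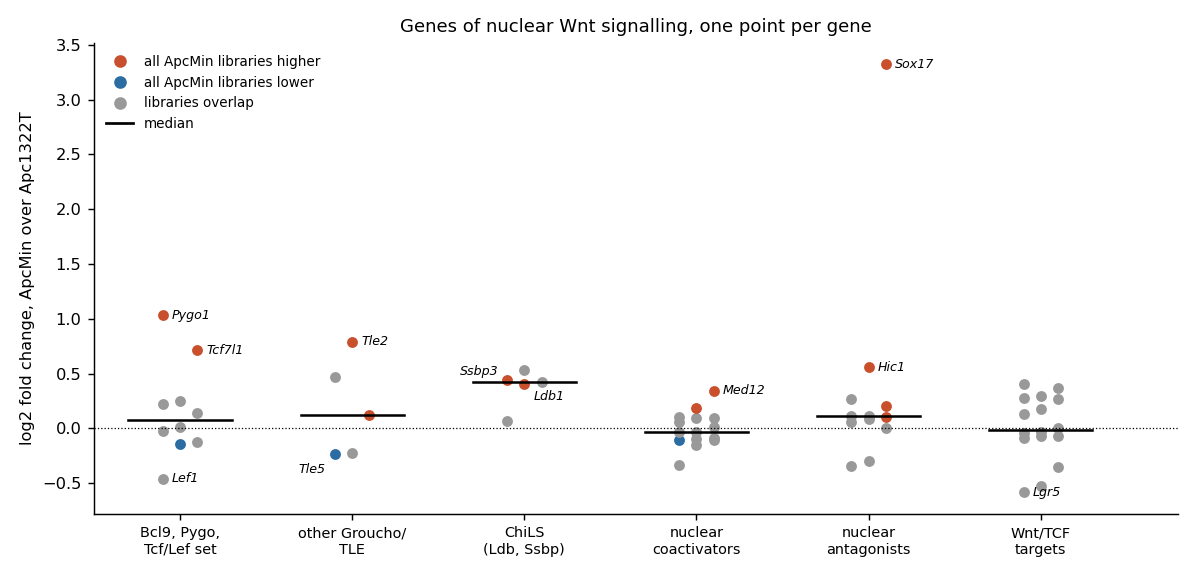
Log2 fold change (*ApcMin* over *Apc1322T*, vertical axis) of each tested gene, grouped by role, with the median of each group as a bar; orange and blue mark genes whose *ApcMin* libraries were all higher or all lower. *Sox17* stands at 3.32, the 5 ChiLS genes all lie above 0, the lowest being *Ssbp4* at 0.063, and the 16 Wnt/TCF targets lie evenly about 0.

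The makeup of the adenomas differed between the libraries as well, and in whole tissue fewer cells of a type cannot be told apart from less RNA per cell. Of 10 epithelial markers, 10 had a log2 fold change below 0, and their summed level was between 14790 and 18210 CPM in *Apc1322T* and between 12010 and 14180 CPM in *ApcMin* libraries. The smooth muscle markers had 8 of 8 genes above 0, and their sum was between 135.1 and 270.9 CPM in *Apc1322T* and between 289.3 and 426.5 CPM in *ApcMin* libraries. *Pygo1* and *Tcf7l1* thus separated the genotypes in the same way as the smooth muscle sum and opposite to the epithelial sum, and the part of tissue makeup in these differences was not tested. The fibroblast markers, 9 of 9 tested genes above 0, summed to between 633 and 1579 against between 1031 and 3378 CPM, and the macrophage markers, 7 of 8 above 0, to between 160.4 and 185.5 against between 161.5 and 527.2 CPM. No marker of any list was at 0 in all libraries.

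Some of these sums also moved with single genes. Endothelial markers, with 7 of 7 genes above 0, summed to between 113.6 and 181 CPM in *Apc1322T* and between 168.5 and 251.4 CPM in *ApcMin* libraries, with *ApcMin* replicate 3 highest as for *Sox17*. *ApcMin* replicates 1 and 2 ranked the other way, with sums of 225.8 and 168.5 CPM but *Sox17* at 48.9 and 100.4 CPM. *ApcMin* replicate 2 also lay below *Apc1322T* replicate 1 in the sum (181 CPM), whereas *Sox17* was at 16.2 CPM in the latter. Without *ApcMin* replicate 1, the log2 fold changes of *Pecam1*, *Kdr* and *Emcn* turned to -0.020, -0.060 and -0.075. The part of endothelial cells in the *Sox17* difference was not tested. The sum of B and plasma cell markers (4 of 5 tested genes above 0) was 1153 CPM in *ApcMin* replicate 3, where *Tle1* was highest, and between 465.2 and 731.2 CPM in the other 5 libraries. T cell markers (4 of 11 above 0) summed to between 34.04 and 62.6 CPM in *Apc1322T* and between 38.1 and 75.6 CPM in *ApcMin* libraries. The highest sum, in *ApcMin* replicate 1, held 44.3 CPM of *Thy1*, which stromal cells also express. Without *Thy1*, an alternative chosen after seeing the data, 3 of 10 were above 0 and the sums were 19.6, 39.9 and 48.99 CPM in *Apc1322T* and 31.3, 28.4 and 22.5 CPM in *ApcMin* replicates 1, 2 and 3. With and without it the sum was lowest in *Apc1322T* replicate 1, where *Tcf7* and *Lef1* were highest, and the part of T cells in the levels of these genes was not tested. The markers of enteric neurons and glia (2 of 4 tested genes above 0) lay between 30.0 and 34.3 against between 28.0 and 37.9 CPM.

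**Figure D5:**
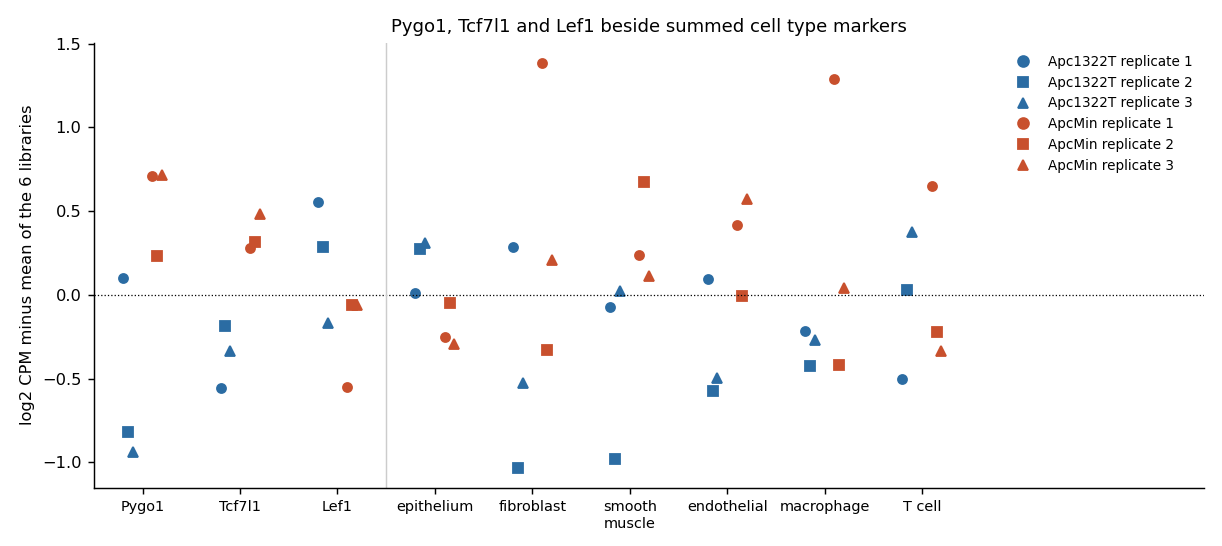
*Pygo1*, *Tcf7l1* and *Lef1* beside the summed markers of 6 cell types in each library, as log2 CPM minus the mean of the 6 libraries. Orange *ApcMin* symbols lie above all blue *Apc1322T* symbols for *Pygo1*, *Tcf7l1* and smooth muscle and below all of them for epithelium, while *Lef1*, fibroblast, endothelial, macrophage and T cell values overlap.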

How the data were processed

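RNA-seq libraries from *Apc1322T* and *ApcMin* adenomas, 3 of each, were made from 1 μg of total RNA with a strand-specific kit and sequenced as single-end reads of 50 bases. The authors quantified transcripts of GRCm38 (GRCm38.p6 in the submitters' processing notes) with Salmon, and the deposited values are estimated counts summed per gene, neither scaled to library size nor to gene length. These estimated counts were rounded to whole numbers. Symbols, positions and lengths came from GENCODE M21 by Ensembl identifier, for 34582 of 34866 genes. Genes were filtered with filterByExpr (minimum count 10, minimum total 15), scaled by TMM and tested in edgeR 4.0.16 (quasi-likelihood, robust) under R 4.3.3. P-values were adjusted by Benjamini-Hochberg over all 16536 genes, at a threshold of 0.01. SE is the log2 fold change divided by the root of its F statistic, and log2 CPM used a prior count of 2. DESeq2 1.42.0 and limma-voom (limma 3.58.1) were alternatives, with other scalings and filters, an adjusted p under 0.05 and each library left out. The fits were tested on simulated counts. Every one of the 10 genes is named, with *Apc*, *Ctnnb1*, up to 4 genes per list whose libraries did not overlap, and the 3 most similar genes of 4 members. *Ldb2*, *Ssbp2*, *Ssbp4* and *Lgr5* were named after their values were seen. The genes and lists were chosen with earlier results of these data known.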

Additional observations from a re-analysis of the deposited data

How the results depend on the processing

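The call of 0 of the 10 genes held under all alternatives run. Over all genes, edgeR called 0 genes, 1 without the filter on low counts and 1 at an adjusted p under 0.05, between 0 and 1 with a library left out (1 without *ApcMin* replicate 3), and DESeq2 called 194. At an adjusted p under 0.05, DESeq2 called 473 genes, and edgeR 205 without *Apc1322T* replicate 1. *Bcl9* turned from 0.013 to -0.0037 with DESeq2 and ranged from -0.079 to 0.18 with a library left out (-0.050 and -0.079 without *Apc1322T* replicates 2 and 3, -0.040 without *ApcMin* replicate 3). *Pygo2* turned to 0.031 under upper quartile scaling and ranged from -0.095 to 0.018 (0.0045 without *Apc1322T* replicate 1, 0.018 without *ApcMin* replicate 2). *Tle1* ranged from -0.080 to 0.46. The median of the Wnt/TCF targets ranged from -0.098 to 0.18 and the *Bcl9* to *Bcl9l* difference from -0.24 to 0.037, the upper value of each without *Apc1322T* replicate 1. DESeq2 called 1 nuclear antagonist. The cause of these changes was not tested. The remaining fold changes of the 10 genes, list medians, ratios and shares kept their direction, and the remaining calls their side of the threshold. An exception was the median of the coactivators, which lay between -0.045 and 0.0019. Single genes of the other lists turned as well, among them *Ssbp4* of the ChiLS complex. *Cdx1*, an epithelial marker, turned to 0.068 and 0.072 without *Apc1322T* replicate 3 and *ApcMin* replicate 3. The endothelial markers *Pecam1*, *Kdr* and *Emcn* turned below 0 without *ApcMin* replicate 1. Of the 10 genes, between 4 and 7 had a log2 fold change above 0. Upper quartile scaling put the median log2 fold change of all genes at 0.074, against 0.017 with TMM. The replicate numbers join different mice, and deviations of same-numbered libraries correlated at -0.0139, 0.164 and -0.286, so that they do not pair the samples; with the replicate number as a block, 0 of the 10 genes and 0 genes overall were called, *Pygo1* and *Tcf7l1* were at 1.09 and 0.72, and *Pygo1* but not *Tcf7l1* kept an unadjusted p under 0.05, beside 2113 genes or 12.8% of all. With 3 libraries per genotype the spread between mice limits the precision, and for *Pygo1* and *Tcf7l1*, at 20 to 98 counts, so does the counting error.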

Other observations

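For 4 of the genes, the most similar patterns across the 6 libraries were sought among 16465 genes by Pearson's correlation of log2 CPM, as a description over few points that share library and genotype. *Pygo1* was most like *Fgd1* (0.9963), *Myo18b* (0.9954) and *Ncoa5* (0.9942), and 178 genes had a correlation over 0.95 with it. *Tcf7l1* was most like the predicted gene *Gm13369* (0.9975), the prostacyclin synthase gene *Ptgis* (0.9894) and the receptor tyrosine kinase gene *Kit* (0.9878), and 62 genes were over 0.95. *Gm13369* had a low level, at -2.45, -1.69 and -2.01 log2 CPM in *Apc1322T* and -0.94, -0.78 and -0.38 in *ApcMin* replicates 1, 2 and 3. *Kit*, which marks interstitial cells of Cajal and mast cells, was at 3.44, 4.09 and 3.91 log2 CPM in *Apc1322T* and at 4.80, 5.18 and 5.57 in *ApcMin* replicates 1, 2 and 3. *Tcf7* was most like *Gm7332* (0.9935), the checkpoint kinase gene *Chek1* (0.9898) and *Nme4* (0.9887), with 84 genes over 0.95. *Lef1* was most like *Fgfr3*, *Prelid2* and *Fam151b*, each at 0.9822. The receptor gene *Fgfr3* was at 4.03, 3.69 and 3.35 log2 CPM in *Apc1322T* and at 2.94, 3.35 and 3.27 in *ApcMin* replicates 1, 2 and 3, and 24 genes were over 0.95.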
